A study of Mus musculus with 8 samples.

Results

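The genes described here serve the entry of proteins into the endoplasmic reticulum (ER), their folding there and their export in COPII-coated vesicles. The list holds 50 genes in 4 classes: signal recognition, the translocon with the signal peptidase, COPII with its cargo receptors, and ER chaperones with genes of the unfolded protein response. Each gene was read from the probe set that carried its symbol alone, and from the one with the highest mean where there were several, which gave 49 members of 19938 genes measured. Sec61g, a subunit of the translocon, lay only on probe sets with several symbols and is not analysed here. The members were chosen by function with the KLF7 minus control differences of these same arrays in view, in which Srpr and Sec24d were among the lower genes of smallest p. The differences of the members are therefore given as a description, with no test.

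The arrays measured total RNA of haematopoietic stem and progenitor cells from the bone marrow of C57Bl/6 mice. Cells positive for c-Kit received a control virus or a lentivirus that expressed the zinc finger protein KLF7, and the Lin- c-Kit+ Sca-1+ (KLS) fraction was sorted 72 hours later. Both groups were thus transduced, cultured and sorted, and each had 4 arrays. The sources used here do not give the promoter of the virus, the age of the mice, any pooling of animals or whether the arrays came from separate cultures. Any p-value here is therefore set against variation among arrays whose source is not known, and it may not stand for variation between animals. Arrays of the same group differed widely in some cell type markers, as given below.

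Proteins bound for the cell surface, the granules or the medium carry a signal sequence, which the signal recognition particle binds as it leaves the ribosome. The particle docks at its receptor on the ER, the chain passes through the Sec61 channel, the signal peptidase removes the signal sequence, and chaperones and disulfide isomerases fold the product. COPII, an inner coat of Sec23 and Sec24 and an outer coat of Sec13 and Sec31 that the GTPase Sar1 recruits, then buds vesicles towards the Golgi. When unfolded proteins build up, the sensors IRE1, PERK and ATF6 raise the transcription of many of these genes, in part through the ER stress response element (ERSE) and through XBP1.

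Promoter windows from RefSeq (GRCm38.p6, 250 bases before to 50 bases after a gene's start) were held for 40 of the 49 members, in 42 windows. Both strands were searched for letters bound by factors of the stress response, and for CACCC, among the letters that Krüppel-like factors recognise. The ERSE letters, CCAAT and CCACG with 9 bases of any kind between them, stood in 6 of the 42 windows (14.3%), against 0.119% of all 32851 windows of the same length. All 6 belonged to the chaperone class, in which 13 genes had a window: Calr, Canx, Dnajc3, Hsp90b1, Hspa5 and Pdia6. The shorter ERSE-II letters, ATTGG and CCACG with 1 base of any kind between them, stood in 2 further windows of that class, Herpud1 and Dnajb11 (4.76% of member windows, 0.0365% of all). The chaperone class was listed with genes of the unfolded protein response, which acts in part through ERSE. Its larger share was therefore built into the choice of genes, and nothing is read from it. The elements that lie before the start are shown because 8 of the 13 chaperone windows hold one or the other element and no window of the other classes does. Each has 10 bases on either side and is read on the strand of the match. Capitals mark the fixed letters of the motif.
Calr, ERSE, chr8:84847065-84847103, plus strand: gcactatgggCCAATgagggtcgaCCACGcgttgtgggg
Canx, ERSE, chr11:50325790-50325828, minus strand: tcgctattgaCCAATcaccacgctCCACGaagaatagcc
Dnajc3, ERSE, chr14:118937817-118937855, plus strand: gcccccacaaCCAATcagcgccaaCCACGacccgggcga
Hsp90b1, ERSE, chr10:86705628-86705666, minus strand: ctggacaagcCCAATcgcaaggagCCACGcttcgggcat
Hsp90b1, ERSE, chr10:86705523-86705561, plus strand: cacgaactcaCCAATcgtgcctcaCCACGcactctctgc
Hspa5, ERSE, chr2:34772015-34772053, plus strand: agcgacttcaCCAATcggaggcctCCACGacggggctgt
Pdia6, ERSE, chr12:17266481-17266519, plus strand: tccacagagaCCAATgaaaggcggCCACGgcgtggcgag
Herpud1, ERSE-II, chr8:94386367-94386397, plus strand: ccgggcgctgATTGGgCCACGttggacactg

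The letters TGACGTG, the core of the element that XBP1 and ATF6 bind, stood in 4 member windows (9.52%, against 2.01% of all windows): Hspa5, Srpr, Sec24d and Sec23a. In Sec23a they lay after the start. Srpr and Sec24d, which stood apart between the groups below, had neither ERSE letters, and Hspa5 had ERSE and TGACGTG. Lman1 and Hyou1, the other members that stood apart, had no window and were not searched. The 250 bases before the start are printed for these 3 genes, with TGACGTG in capitals and, in Hspa5, also the CCAAT and CCACG ends of its ERSE.
Srpr, chr9:35210953-35211202, plus strand: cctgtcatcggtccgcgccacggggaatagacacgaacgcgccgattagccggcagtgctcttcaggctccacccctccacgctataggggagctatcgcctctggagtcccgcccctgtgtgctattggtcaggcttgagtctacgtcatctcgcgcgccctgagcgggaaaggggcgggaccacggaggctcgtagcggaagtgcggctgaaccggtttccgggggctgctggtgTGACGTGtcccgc
Sec24d, chr3:123267246-123267495, plus strand: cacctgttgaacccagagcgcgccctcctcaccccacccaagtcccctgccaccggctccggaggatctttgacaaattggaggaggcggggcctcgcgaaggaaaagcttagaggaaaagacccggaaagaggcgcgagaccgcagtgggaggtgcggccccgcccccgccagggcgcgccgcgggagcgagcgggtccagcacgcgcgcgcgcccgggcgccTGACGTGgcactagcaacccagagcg
Hspa5, chr2:34771840-34772089, plus strand: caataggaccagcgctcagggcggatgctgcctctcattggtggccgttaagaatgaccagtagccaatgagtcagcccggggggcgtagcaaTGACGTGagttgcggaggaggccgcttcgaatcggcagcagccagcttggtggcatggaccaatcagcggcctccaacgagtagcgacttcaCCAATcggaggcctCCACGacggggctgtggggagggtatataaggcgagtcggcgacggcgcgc
The CACCC letters stood in 54.8% of member windows and 57.5% of all windows, and TGATGNAAT, a composite element of ATF4, in 0 member windows (0.965% of all). CCAAT (54.8% against 37.4%), CCACG (73.8% against 32.8%) and the GC box GGGCGG (64.3% against 35.7%) were held by larger shares of the member windows. CCAAT stood in 12 of 13 chaperone windows, against 2 of 5 signal recognition, 3 of 9 translocon and 6 of 15 COPII windows. Its larger share thus lay in the chaperone class. CCACG stood in 11 of 13, 3 of 5, 6 of 9 and 11 of 15 windows of these classes, so its larger share did not. CCAAT and CCACG are also parts of ERSE, which no window outside the chaperone class held. The shares of all windows are over genes of any level and base content, whereas all 49 measured members lay above the median of the gene means. The compared sets are thus unlike, and no matched set of windows was searched. A match describes these letters only, and binding was not measured.

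Klf7, the transduced gene, averaged 10.80 ± 0.55 in the KLF7 group and 9.04 ± 1.00 in the controls (log2 intensity, SD, n = 4), a difference of 1.76. An exact permutation test, two-sided, gave p = 0.0571, where 0.0286 is the smallest it can give. Among single libraries, the one labelled control 2 (10.28) exceeded the one labelled KLF7 2 (10.19), so every direction below is that of the labels. Whether this probe set reads the viral transcript is not known here, so its values check the labels only in part. In limma with Benjamini-Hochberg adjustment over all 19938 genes, 0 genes (0%) had an adjusted p under 0.05, so no member did. The smallest adjusted p was 0.201, 1637 genes (8.21%) had an unadjusted p under 0.05, 709 of them lower (3.56%) and 928 higher (4.65%), and the ordinary two-sample test also gave 0 genes after adjustment. The deposited values are RMA intensities, given here as log2, and array medians over genes lay between 5.77 and 5.85. Of the markers of the sorted cells, Kit (7.85 to 10.52), Cd34, Flt3, Meis1 and Hlf lay above the array median on all 8 arrays, Mecom on none, and Ly6a, which encodes Sca-1, was not analysed here. The median difference of the 6 measured was 0.05, and that of Hlf, a factor of stem cells, was -0.90 (SE 0.23), with 6.29 to 7.17 on the KLF7 arrays and 7.25 to 8.03 on the controls, which do not overlap.

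Most members had a lower mean on the KLF7 arrays. Of the 49, 39 were lower (79.6%) and 10 higher, where 49.6% of all genes were lower, and the median difference was -0.21 log2 against 0.00 over all genes. A difference below -0.5 was seen in 7 members (14.3%, against 3.07% of all genes), and without KLF7 1 in 4 (8.16%, against 2.37%). The 4 KLF7 arrays lay wholly below the 4 control arrays for 4 members, Srpr, Sec24d, Lman1 and Hyou1 (8.16%, against 2.38% of all genes), and wholly above for 0 (2.83% of all genes). Since the list was chosen with these differences in view, nothing is read from the shares. All 49 members had a mean above 5.84, the median of the gene means. With the dimmer 50% of genes left out, 3.61% of genes lay wholly lower on the KLF7 arrays and 51.3% had a lower mean. The other shares of all genes given here include the dim ones. In bulk RNA, fewer cells of a type and less RNA per cell cannot be told apart.

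**Figure D1:**
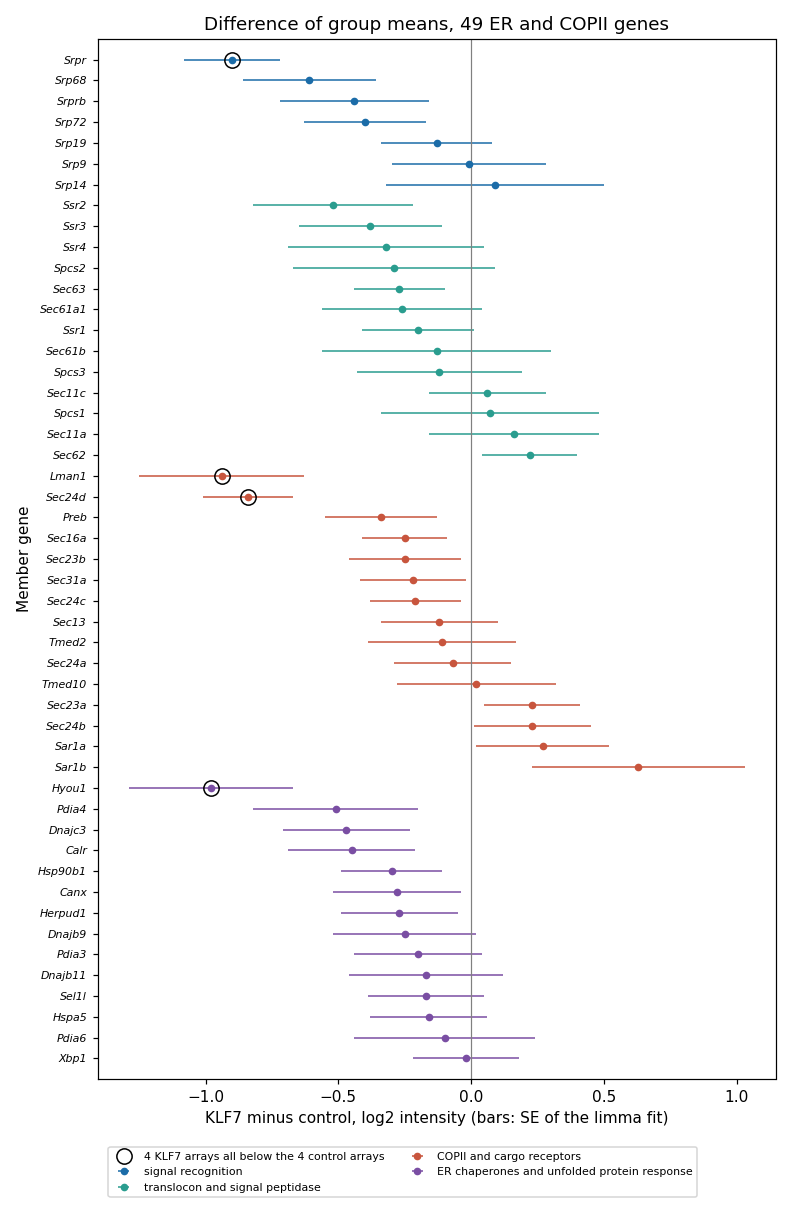
Difference of group means, KLF7 minus control in log2 intensity, for the 49 measured members by class, with bars for the standard error of the limma fit. Circles ring the 4 members whose 4 KLF7 arrays all lay below the 4 control arrays (Srpr, Lman1, Sec24d, Hyou1), and Sar1b lies farthest to the right at 0.63.

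Much of the shift lay on 1 array. KLF7 1 was the lowest of the 8 arrays for 33 of the 49 members (67.3%), against 15.2% of all genes. The mean log2 level of the members was 8.28 on KLF7 1, 9.07 on KLF7 2, 8.52 on KLF7 3 and 9.04 on KLF7 4, and 8.79, 8.84, 8.98 and 9.17 on control 1 to control 4. KLF7 2 and KLF7 4 thus lay within the upper part of the control range, KLF7 1 and KLF7 3 below it. The mean over all genes differed little between arrays (5.88 to 5.93). RMA makes the arrays alike over all probe sets, so nothing is read from these near-equal means. Control 4 was the highest array for 17 members (34.7%, against 14.8% of all genes). Without KLF7 1 the median difference was -0.05, and 31 of the 49 members (63.3%, against 50.3% of all genes) were lower. The groups of Srpr, Sec24d, Lman1 and Hyou1 also did not overlap after each of 3 other normalizations. These start from the same arrays and RMA values on which the 4 were picked, so they add no independent support.

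The members also varied more among the KLF7 arrays than among the controls. The SD was larger in the KLF7 group for 43 of 49 members (87.8%), against 59.9% of all genes. The median SD of the members was 0.44 log2 on the KLF7 arrays and 0.24 on the control arrays, and 0.33 on the KLF7 arrays without KLF7 1. Over all genes the medians were 0.25 and 0.21. A larger SD on the KLF7 arrays was also seen in 22 of 25 cytosolic ribosomal protein genes, 19 of 21 genes of ATF4 and serine synthesis and 24 of 27 further ER exit genes. The same held for 11 of 12 oligosaccharyltransferase and 10 of 12 COPI genes. In other lists the counts were lower. They were 14 of 20 ER redox and lectin, 11 of 16 ER-associated degradation and 11 of 18 translocation and insertion genes. Stress sensors and factors gave 7 of 13 and Golgi trafficking 5 of 11.

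**Figure D2:**
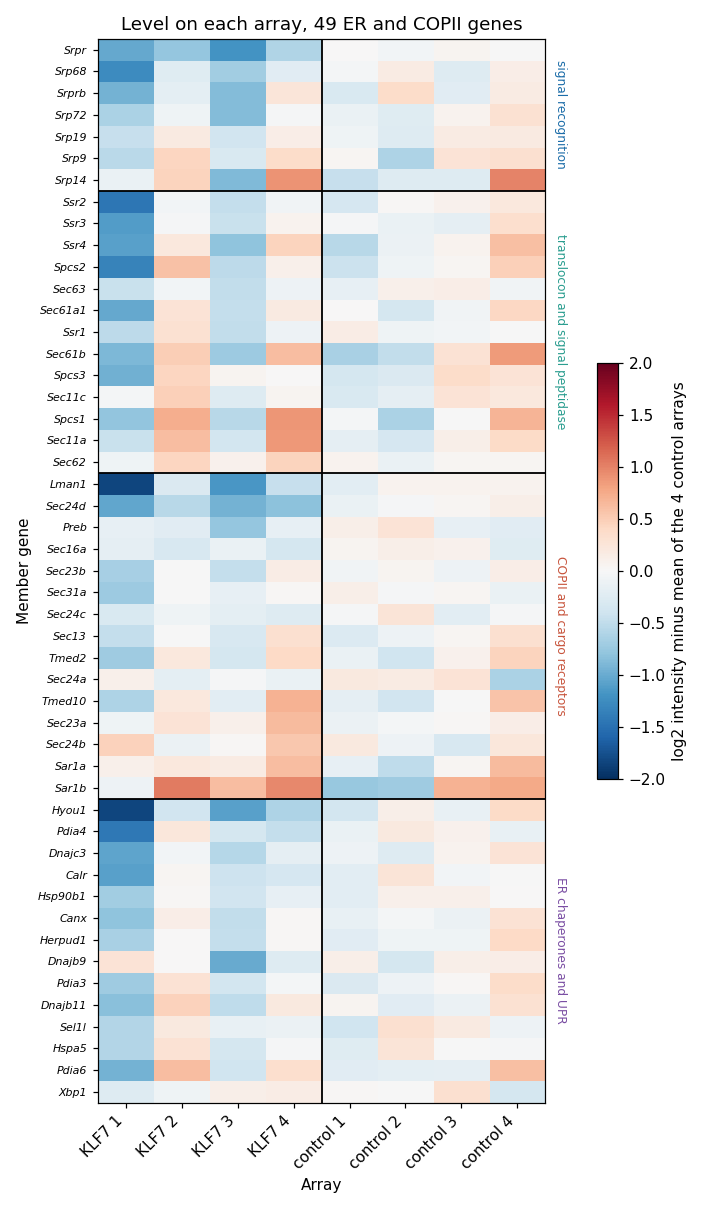
Log2 intensity of each member on each array, less the mean of its 4 control arrays, with members in rows by class and arrays in columns. KLF7 1 is the lowest array for 33 of the 49 rows, whereas Srpr, Sec24d, Lman1 and Hyou1 are below the controls on all 4 KLF7 arrays.

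The signal recognition class had 7 members, and 6 of them were lower in the KLF7 group. Their median difference was -0.40, and -0.27 without KLF7 1. Srpr encodes the receptor subunit that docks the signal recognition particle at the ER membrane. It read 7.34, 7.59, 7.17 and 7.77 on KLF7 1 to KLF7 4 and 8.38, 8.31, 8.42 and 8.36 on control 1 to control 4. The control arrays lay within a narrow band, at 8.37 ± 0.04 (SD, n = 4), and the KLF7 arrays, at 7.47 ± 0.26 (SD, n = 4), lay wholly below it. The difference was -0.90 (SE 0.18, 1.86-fold lower), and -0.86 without KLF7 1.

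Srp68, a protein of the particle itself, read 7.80, 8.81, 8.37 and 8.83 on the KLF7 arrays and 9.02, 9.22, 8.80 and 9.20 on the control arrays, a difference of -0.61 (SE 0.25). It lay just outside separation, since KLF7 2 and KLF7 4 lay above control 3 by little, and the difference was -0.39 without KLF7 1. Srp72, which binds the particle's RNA together with Srp68, differed by -0.40 (SE 0.23) and Srprb, the membrane-anchored receptor subunit, by -0.44 (SE 0.28), both with groups that overlapped. Srp19, which joins the particle early in its assembly, was at -0.13 (SE 0.21) and Srp9, of the domain that slows translation, at -0.01 (SE 0.29). Srp14, the partner of Srp9, was the highest of the class at 0.09 (SE 0.41). It read 8.35, 8.92, 7.59 and 9.38 on the KLF7 arrays and 8.01, 8.22, 8.21 and 9.46 on the control arrays, so that both arrays numbered 4 were the highest of their group. The receptor subunit and the particle's larger proteins were thus the lower members, and the small pair Srp9 and Srp14 lay near 0.

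The translocon and signal peptidase class showed no shift that held across arrays. Of 13 members 9 had a lower mean, the median was -0.20, and it was 0.06 without KLF7 1 and 0.02 with array weights. Sec61a1, the channel subunit, read 8.22, 9.52, 8.76 and 9.42 on the KLF7 arrays and 9.25, 8.89, 9.17 and 9.66 on the control arrays. Only KLF7 1 and KLF7 3 lay below all control arrays, and the difference of -0.26 (SE 0.30) was -0.01 without KLF7 1. Ssr2 and Ssr3, subunits of the translocon-associated protein complex TRAP, were the lowest of the class. Ssr2 read 8.39, 9.78, 9.36 and 9.77 against 9.51, 9.87, 9.93 and 10.06, a difference of -0.52 (SE 0.30), and -0.21 without KLF7 1. Ssr3 read 8.54, 9.63, 9.21 and 9.72 against 9.63, 9.52 and 9.48 on control 1 to control 3 and a higher value on control 4, a difference of -0.38 (SE 0.27), and -0.13 without KLF7 1. In both genes KLF7 2 and KLF7 4 lay within the range of the controls.

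The other TRAP subunits, Ssr4 (-0.32, SE 0.37) and Ssr1 (-0.20, SE 0.21), had groups that overlapped too. Sec62 and Sec63, which assist the channel in import after translation, differed in sign. Sec62 was the highest of the class and read 7.34, 7.85, 7.51 and 7.88 on the KLF7 arrays and 7.50, 7.29, 7.46 and 7.46 on the control arrays, a difference of 0.22 (SE 0.18). Sec63 was at -0.27 (SE 0.17). Sec61b, a small channel subunit, was at -0.13 (SE 0.43). Of the signal peptidase, the catalytic subunits Sec11a (0.16, SE 0.32) and Sec11c (0.06, SE 0.22) and the small subunit Spcs1 (0.07, SE 0.41) had higher means, and Spcs2 (-0.29, SE 0.38) and Spcs3 (-0.12, SE 0.31) lower ones. All 13 members had groups that overlapped, and KLF7 1 was the lowest array for 10 of them.

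The COPII class held the highest difference of all members and, outside the chaperone class, the lowest, and its median was small (-0.12, and -0.05 without KLF7 1), with 10 of 15 members lower. Lman1, also known as ERGIC-53, is the lectin that carries glycoproteins such as coagulation factors from the ER. It read 6.48, 8.03, 7.15 and 7.86 on the KLF7 arrays and 8.10, 8.39, 8.39 and 8.39 on the control arrays. The KLF7 arrays lay below the controls, KLF7 2 by a narrow margin, and spread over a wider range. The difference was -0.94 (SE 0.31, 1.92-fold lower), and -0.64 without KLF7 1.

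Sec24 is the cargo-binding subunit of the inner coat, and its 4 paralogues did not share one difference. Sec24d read 6.93, 7.41, 7.02 and 7.15 on the KLF7 arrays and 7.84, 7.94, 8.01 and 8.09 on the control arrays. All KLF7 arrays lay below all controls, at 7.13 ± 0.21 against 7.97 ± 0.11 (SD, n = 4 each), a difference of -0.84 (SE 0.17, 1.79-fold lower). Leaving out single arrays gave -0.94 to -0.78, the latter without KLF7 1.

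Sec24c, the closest relative of Sec24d, read 8.56, 8.78, 8.67 and 8.60 against 8.84, 9.12, 8.65 and 8.84, a difference of -0.21 (SE 0.17). Sec24a read 8.16, 7.87, 8.03 and 7.92 against 8.25, 8.22, 8.34 and 7.43, a difference of -0.07 (SE 0.22) in which control 4 stood far below the other controls. Sec24b read 8.97, 8.39, 8.53 and 9.05 against 8.71, 8.40, 8.18 and 8.74, a difference of 0.23 (SE 0.22). The groups of these 3 paralogues overlapped. The differences between the paralogues were not tested, since Sec24d was listed for its own.

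The other subunits of the inner coat are Sec23a and Sec23b, which activate the GTPase of Sar1. Sec23a read 6.53, 6.89, 6.71 and 7.25 on the KLF7 arrays and 6.50, 6.58, 6.64 and 6.74 on the control arrays, with a difference of 0.23 (SE 0.18). Sec23b was lowest on KLF7 1 and read 7.66, 7.19 and 7.82 on KLF7 2 to KLF7 4, against 7.59, 7.72, 7.56 and 7.80 on the controls, a difference of -0.25 (SE 0.21). KLF7 1 and KLF7 3 were below all controls for Sec23b, while KLF7 2 and KLF7 4 were above all controls for Sec23a.

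Of the outer coat, Sec13 read 7.62, 8.08, 7.78 and 8.42 against 7.82 on control 1, 8.14 on control 3 and 8.42 on control 4, with control 2 between the first pair. The difference was -0.12 (SE 0.22), and 0.00 without KLF7 1. Sec31a was at -0.22 (SE 0.20). Sar1b, the form of the Sar1 GTPase needed to export very large cargo such as chylomicrons, had the highest difference of all members, 0.63 (SE 0.40). It read 6.66, 7.80, 7.38 and 7.73 on the KLF7 arrays and 6.01, 6.06, 7.46 and 7.53 on the control arrays. Control 1 and control 2 were low and the other controls lay within the range of the KLF7 arrays, and leaving out single arrays gave 0.38 to 0.89. Its relative Sar1a was at 0.27 (SE 0.25).

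Sec16a, the scaffold of ER exit sites, was at -0.25 (SE 0.16), and Preb, the exchange factor that loads Sar1 with GTP, at -0.34 (SE 0.21). The p24 cargo receptors Tmed2 (-0.11, SE 0.28) and Tmed10 (0.02, SE 0.30) lay near 0. The coat as a whole therefore held 1 paralogue that stood apart, a cargo lectin that stood apart, and members on both sides of 0.

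**Figure D3:**
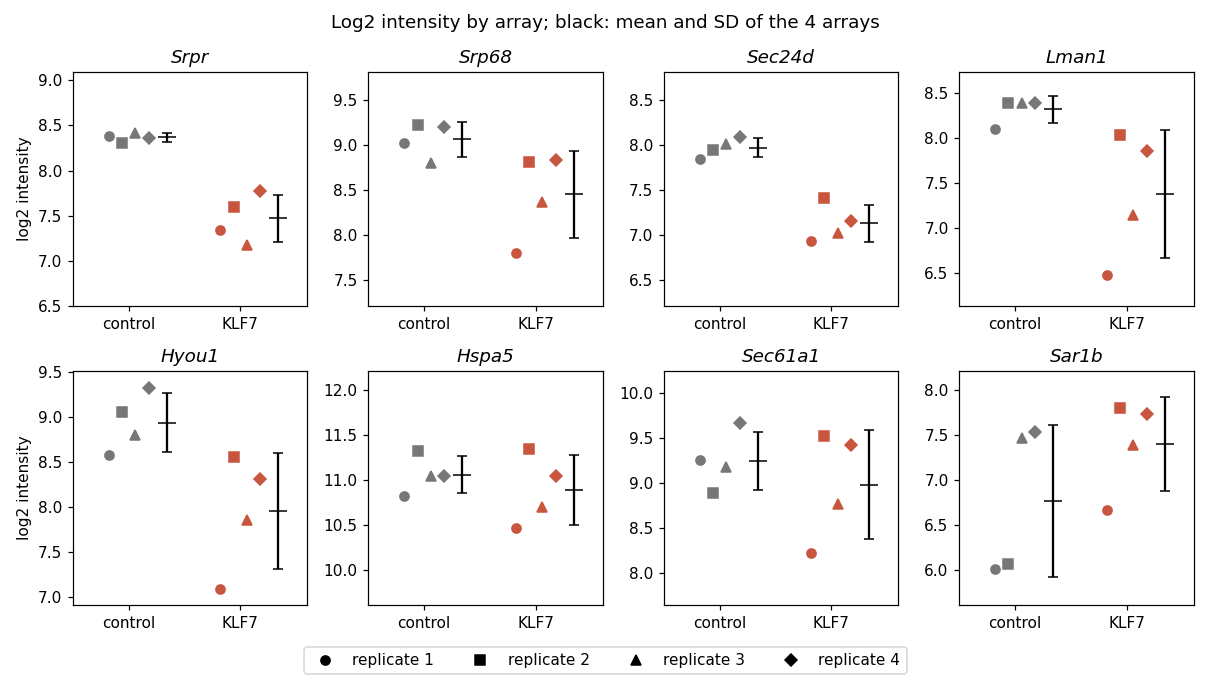
Log2 intensity of 8 members on each of the 4 control and 4 KLF7 arrays, with a marker for each replicate number and the mean and SD of each group in black. All panels span the same height on the log2 scale. Srpr, Sec24d, Lman1 and Hyou1 show KLF7 arrays below all controls, Srp68 misses this by little, and Hspa5, Sec61a1 and Sar1b overlap.

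In the chaperone class 14 of 14 members were lower in the KLF7 group (median -0.26). Without KLF7 1, 11 of 14 were lower and the median was -0.13. Hyou1, an ER chaperone of the Hsp110 family that releases nucleotide from BiP, had the lowest difference of all 49 members. It read 7.09, 8.55, 7.85 and 8.31 on the KLF7 arrays and 8.57, 9.05, 8.79 and 9.32 on the control arrays. KLF7 2 lay just below control 1, and the other KLF7 arrays were clearly lower. The difference was -0.98 (SE 0.31, 1.97-fold lower), and -0.69 without KLF7 1.

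Hspa5 encodes BiP, the main Hsp70 chaperone of the ER and the usual marker of the unfolded protein response. It read 10.47, 11.35, 10.70 and 11.04 on the KLF7 arrays and 10.82, 11.32, 11.05 and 11.04 on the control arrays. The groups overlapped widely, and the difference of -0.16 (SE 0.22) was -0.02 without KLF7 1. Xbp1, the transcription factor whose RNA is spliced by IRE1, read 8.86, 9.04, 9.24 and 9.27 on the KLF7 arrays and 9.15, 9.12, 9.45 and 8.78 on the control arrays. Its difference, -0.02 (SE 0.20), was the closest to 0 in the class, and spliced and unspliced RNA are not separated here.

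Pdia4, a disulfide isomerase, read 8.22, 9.88, 9.30 and 9.17 against 9.52, 9.84, 9.74 and 9.51, a difference of -0.51 (SE 0.31) and of -0.20 without KLF7 1. The other isomerases were Pdia3 (-0.20, SE 0.24), which works on glycoproteins, and Pdia6 (-0.10, SE 0.34). The lectin chaperones of the calnexin cycle were Calr (-0.45, SE 0.24) and Canx (-0.28, SE 0.24), and Hsp90b1, the ER form of Hsp90, was at -0.30 (SE 0.19). The groups of all 6 genes overlapped.

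The ER cochaperones that stimulate BiP were Dnajc3 (-0.47, SE 0.24), Dnajb11 (-0.17, SE 0.29) and Dnajb9 (-0.25, SE 0.27). Sel1l, an adaptor of ER-associated degradation, was at -0.17 (SE 0.22), and Herpud1, a membrane protein of the same pathway, at -0.27 (SE 0.22). KLF7 1 was the lowest array for 12 of the 14 chaperone members. The others were Xbp1, lowest on control 4, and Dnajb9, for which KLF7 1 was the highest array (8.71) and KLF7 3 the lowest (7.43). The 8 chaperone genes whose windows held ERSE or ERSE-II letters had a median difference of -0.28, from -0.47 (Dnajc3) to -0.10 (Pdia6). The 5 whose windows held neither had a median of -0.20, from -0.51 (Pdia4) to -0.02 (Xbp1), and Hyou1 had no window. The 2 ranges overlapped.

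**Figure D4:**
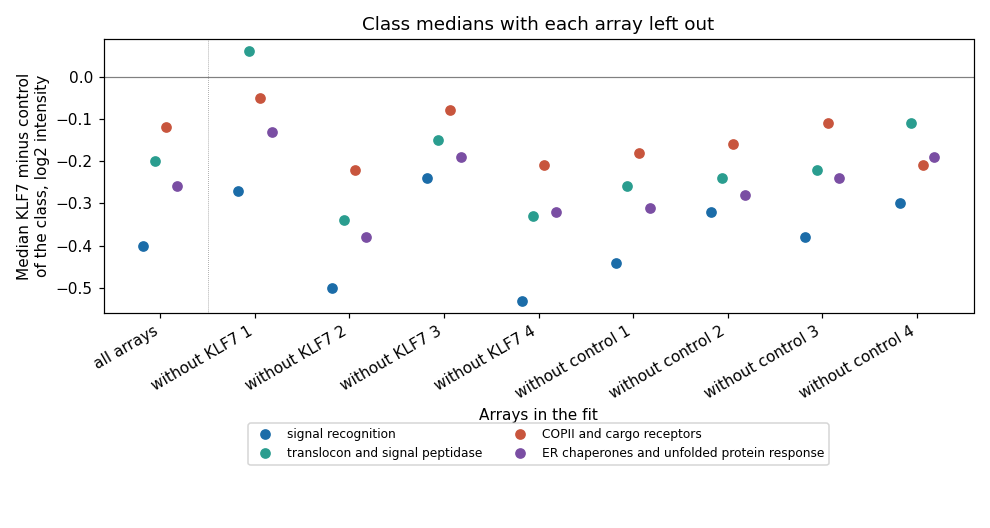
Median KLF7 minus control difference of each class, in log2 intensity, with all arrays and with each array left out in turn. Without KLF7 1 the translocon class is at 0.06, COPII at -0.05, chaperones at -0.13 and signal recognition at -0.27.

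Where a member had several probe sets with its symbol alone, the others gave like differences. Pdia4 was at -0.51 on the probe set used and -0.62 on the other, Sec61b at -0.13 and at -0.12 and -0.13, and Dnajc3 at -0.47 on both. Tmed2 (-0.11, and -0.08 and 0.01 on the others), Tmed10 (0.02 and 0.06) and Srp9 (-0.01 and 0.00) stayed near 0.

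Other genes of the pathway were taken from 8 lists of other functions, which held 129 measured genes. Of these, 79 had a lower mean on the KLF7 arrays and 50 a higher one, with a median of -0.08, or 0.02 without KLF7 1. Over all genes 49.6% were lower. The groups did not overlap in the lower direction for 5 of the 129 (2.38% of all genes) and in the higher direction for 1 (2.83% of all genes). Among the stress sensors and factors, 10 of 13 were lower (median -0.09). Ern1, which encodes the sensor IRE1 that splices Xbp1 RNA, read 8.49, 8.49, 8.67 and 8.54 on the KLF7 arrays and 9.53, 9.95, 9.45 and 9.01 on the control arrays. The KLF7 arrays lay close together and wholly below the controls, with a difference of -0.94 (SE 0.21). Creb3l2, a membrane-bound transcription factor that activates secretory genes, was at -0.61 (SE 0.26), and Atf3, a stress-induced factor, at 0.70 (SE 0.52).

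Of 16 genes of ER-associated degradation, 10 were lower (median -0.06), with Derl3, of the Derlin family, at -1.02 (SE 0.35), Syvn1, the ubiquitin ligase HRD1, at -0.45 (SE 0.20) with groups that did not overlap, and Erlec1, a lectin of the pathway, at -0.36 (SE 0.18). Of 20 ER redox and lectin genes, 14 were lower (median -0.15). Pdia5, another disulfide isomerase, was at -0.80 (SE 0.23) and Prdx4, the ER peroxiredoxin, at 0.89 (SE 0.24), each with groups that did not overlap, and Creld2 at -0.49 (SE 0.30). Prdx4 read 7.19, 7.31, 7.24 and 7.69 on the KLF7 arrays and 5.74, 6.74, 6.67 and 6.72 on the control arrays, the 1 gene of these lists with all KLF7 arrays above all controls.

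Of 12 oligosaccharyltransferase genes, whose products add glycans at the translocon, 9 were lower (median -0.27, and -0.05 without KLF7 1), with Ostc at -0.65 (SE 0.44) and Ddost and Stt3a both at -0.42 (SE 0.34 and 0.22). Of 18 further translocation and insertion genes 6 were lower (median 0.07), with Emc9 at 0.43 (SE 0.22), Emc3 at 0.40 (SE 0.18) and Emc4 at 0.32 (SE 0.20), subunits of the ER membrane protein complex. Of 27 further ER exit and cargo genes 16 were lower (median -0.05), with Bcap29 at -0.72 (SE 0.22), Lman2 at -0.56 (SE 0.35) and Tmed9 at -0.55 (SE 0.33). Of 12 COPI coat and retrieval genes 9 were lower (median -0.10), with Copg1 at -0.36 (SE 0.16) and groups that did not overlap, Copz2 at 0.38 (SE 0.18) and Kdelr3, a receptor that returns ER residents, at -0.36 (SE 0.21). Of 11 Golgi trafficking genes 5 were lower (median 0.05), with Rab1b at 0.50 (SE 0.26), Gorasp2 at -0.30 (SE 0.22) and Golgb1 at -0.30 (SE 0.16), the last with groups that did not overlap. Golgb1 read 7.23 on both KLF7 1 and control 1 at this rounding. Of the 8 list medians, that of oligosaccharyltransferase was the lowest and that of translocation and insertion the highest.

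The low level on KLF7 1 was shared with lists outside the ER. It was the lowest array for 21 of 25 cytosolic ribosomal protein genes (median difference -0.24, and -0.10 without it) and for 18 of 21 genes of ATF4 and serine synthesis (-0.29, and -0.03 without it). Among markers of granulocyte progenitors, whose granule proteins pass through the ER, 5 of 5 had a lower mean (median -0.47, and -0.11 without KLF7 1). Their summed intensity ran from 2036 to 8611 on the KLF7 arrays and from 2377 to 13832 on the control arrays, and none of the 5 lay below the array median on any array. Their mean log2 level was 8.49, 10.36, 10.46 and 8.83 on KLF7 1 to KLF7 4 and 10.41, 10.48, 11.16 and 8.55 on control 1 to control 4. It was lowest among the KLF7 arrays on KLF7 1, where the ER members were also lowest (8.28), and low on both arrays numbered 4, where the ER members were high (9.04 and 9.17).

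Of 7 macrophage or dendritic cell markers 6 had a higher mean (median 1.00), with summed intensities of 4749 to 12137 on the KLF7 arrays and 1816 to 5978 on the control arrays, highest on KLF7 1 by mean log2 level (10.01). Itgax lay below the array median on 1 array and the other 6 on none. Of 9 B or plasma cell markers, a highly secretory lineage, 6 had a higher mean (median 0.03, summed intensities 379 to 708 and 288 to 454). Of these, Jchain (2.64 to 3.11), Ms4a1, Cd79a, Sdc1 and Mzb1 lay below the array median on all 8 arrays, and Irf4, which other blood cells also express, was at 1.31 (SE 0.44). Of 5 neutrophil markers 5 had a higher mean (median 0.20), of 4 mast cell markers 4 (median 0.51), of 5 T or NK cell markers 3 (median 0.08) and of 2 erythroid markers 0 (median -0.33). The standard errors of the largest neutrophil and mast cell differences exceeded them (Ltf 0.52, SE 0.83, and Fcer1a 0.65, SE 1.01). Ly6g, Cd3g, Cd4, Cd8a and Klf1 lay below the array median on all 8 arrays, Cd3e and Epor on 7 and Ltf on 6. Both arrays numbered 4 had the lowest mean levels of mast cell markers (6.86 and 6.53, against 9.26 to 10.85 on the others). The part of these markers in the differences of the ER genes was not tested.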

How the data were processed

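RNA of sorted KLS cells was amplified and hybridised to single-colour arrays, 4 per group, per the labels' protocols. The deposited values are probe set intensities that, per the submitters' processing notes, the authors summarised by RMA with Affymetrix Expression Console. The sources used here name no version. The intensities ran from 2.20 to 15393 with 0 missing values, so log2 was taken. Of 35554 probe sets 21789 carried 1 symbol in the platform annotation, 1621 several and 12144 none, which gave 19938 genes by highest mean.

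All genes were fitted in limma 3.58.1 (R 4.3.3) with an intensity trend and group as the only term, two-sided, with Benjamini-Hochberg adjustment over all genes. Standard errors are those of this fit. Tested on simulated data for this comparison (19938 genes), the fit recovered 61% of the 100 with a 2-fold change and 94% of the 100 with a 4-fold change, and called 10 unchanged genes. The simulated noise was normal, independent between genes and of equal SD in both groups. The members differ from this in their array-wide shifts and larger SD on the KLF7 arrays, so these shares do not carry over to them. Of the genes on all lists, 8 were matched under another name. Members and lists were chosen with earlier results of these data known. Genes with values on every array are members whose groups did not overlap, the 2 lowest and the highest of each class, and a preset few (Hspa5, Xbp1, Sec61a1, Sec13, Sec23 and Sec24 genes); of other lists, the 3 largest differences. Irf4 and the members named for promoter letters were picked after their values were seen. Alternatives left out arrays, renormalised, weighted arrays, dropped dim genes, averaged probe sets, and used the replicate number or the arrays numbered 4 as a term. Sequences are RefSeq's, GRCm38.p6. Figures were drawn with matplotlib 3.10.9.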

Additional observations from a re-analysis of the deposited data

Results flagged for a closer look

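In 7 of 98 groups of 4 arrays, 2 for each member, 1 array stood so far from the other 3 that its gap passed Dixon's 95% critical value, which chance does for about 1 in 20 groups. On control 4, Srp14 was high at 9.46 (8.01 to 8.22 on the other controls) and Pdia6 at 9.98 (9.16 to 9.21), and Sec24a was low at 7.43 (8.22 to 8.34) and Sec16a at 7.67 (7.98 to 8.03). Preb was low on KLF7 3 at 7.71 (8.27 to 8.32 on the other KLF7 arrays). Lman1 was low on control 1 at 8.10 (all others 8.39), and Dnajb9 on control 2 at 8.08 (8.55 to 8.56). Control 4 held 4 of the 7. For Lman1 the low control array brought the groups closer, and they did not overlap with it included.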

How the results depend on the processing

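The median difference of all 49 members kept its sign in each alternative, between -0.33 and -0.05 with single arrays left out. Of 49 members 39 were lower, 32 with array weights and 31 to 43 with single arrays left out, 31 without KLF7 1. The median of the translocon class reversed to 0.02 with array weights and ranged from -0.34 to 0.06 with single arrays left out, the last without KLF7 1. The count of members lower without overlap, 4, was 9 with quantile normalization applied again and 7 without both arrays numbered 4, where 2.97% and 7.11% of all genes did so (2.38% with all arrays). It was 4 to 7 with single arrays left out, 7 without KLF7 2 (3.41% of all genes) and without control 4 (4.63%). Leaving out arrays can only add to this count. Against 0 genes called over all genes, limma with Benjamini-Hochberg adjustment called 26 when a batch term set the arrays numbered 4 apart and 0 to 1 with single arrays left out (1 without KLF7 3 or control 4). With the replicate number as a block it called 90, and 0 of these and 0 of the 26 were members. Arrays of the same number correlated in their deviations at 0.35, -0.13, 0.36 and 0.70 (numbers 1 to 4). KLF7 1, KLF7 3 and KLF7 4 each correlated best with the control of their own number, and KLF7 2 did not. The labels state no pairing, so the main fit held no block, and its standard errors leave any shared batch unmodelled. Whether arrays of the same number share a batch was not tested. The cause of the changes between settings was not tested either. Precision is limited by the 4 arrays in each group, and intensity over background was not analysed here.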
